A study of Mus musculus with 6 samples.

Results

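A set of genes of the primitive red blood cell was followed in RNAseq counts from heads of E9.0 mouse embryos, and it makes up 9 of the 24421 gene symbols in the count table. The genes were chosen by name for what their products do: the alpha-type globins *Hba-x* and *Hba-a1*, the beta-type globins *Hbb-y* and *Hbb-bh1*, the heme synthesis enzyme *Alas2*, the transcription factors *Gata1* and *Klf1*, the membrane protein *Slc4a1* and the erythropoietin receptor *Epor*. That rule uses no measured value, although the genes were chosen with earlier results of these data known. The experiment compared 3 WT libraries (labelled *Snrpb* +/+) with 3 libraries of *Snrpb* ncc+/- mutants (labelled *Snrpb* +/-), each made from 2 pooled heads, without treatment. In the mutants, Wnt1-Cre2 removes exons between a pair of loxP sites from a copy of *Snrpb*, which encodes a core protein of the spliceosome. The transgene acts in the neural crest and in the neural tube, so blood cells, which come from mesoderm, are expected to keep both copies. The labels name both C57BL/6 and CD1 for every library, and they do not say whether the WT heads carried the Cre transgene.

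Primitive red blood cells arise in the blood islands of the yolk sac and enter the vessels of the embryo when the heart begins to beat, before the fetal liver makes any blood. They fill with embryonic hemoglobins, built from zeta-globin on the alpha side and from epsilon-y and beta-h1 globin on the beta side, and they continue to divide and mature in the circulation. A whole head contains them only inside its vessels, and in a bulk library fewer red blood cells and less RNA per red blood cell cannot be told apart.

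Libraries held between 36378803 and 74909774 counted reads, and levels are given in CPM, a gene's count relative to its TMM-scaled library size. The mean level of *Snrpb* itself was 427 ± 12.2 CPM (WT) against 426 ± 12.5 CPM (mutants; both SD, n = 3; adjusted *P* = 0.990, edgeR's quasi-likelihood test). The count covers the whole gene, including any shorter transcript of the deleted copy, so it gave no check of the genotype labels. WT replicate 1 stood apart in markers of other tissues: the summed level of 13 yolk sac and visceral endoderm markers was 40.6 CPM there and between 11.4 and 13.6 CPM in the other 5 libraries, and the sum of 11 cardiac markers was 20.1 CPM there and between 63.1 and 291 CPM in the others. Comparisons that change sign without that library are given both ways.

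The globin genes lie in 2 clusters, and the remaining genes are single. In mm10, *Hba-x* (chr11:32276400-32278116) and *Hba-a1* (chr11:32283511-32284465) are on the plus strand of the alpha-globin cluster. *Hbb-bh1* (chr7:103841637-103843164) and *Hbb-y* (chr7:103851749-103853216) are on the minus strand of the beta-globin cluster. *Slc4a1* is on chromosome 11, *Alas2* and *Gata1* are on the X chromosome, *Klf1* is on chromosome 8 and *Epor* is on chromosome 9. All 9 are annotated as protein coding. *Alas2* overlaps *Apex2* and *Mir3620* on the opposite strand, and whether reads were counted by strand is not given in the sources used here. The other 8 overlap no annotated gene.

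GATA1 and KLF1 are the best known regulators of these genes, and bind GATA and CACCC sequences. Stretches before the RefSeq start of 5 of the 9 genes are shown as background, and their part in the measured levels was not tested. The sequences are from RefSeq (GRCm38.p6), end at or before the transcript start that RefSeq gives, and run 5′ to 3′ on the strand of the gene. Capitals mark matches to the GATA motif (AGATAA or AGATAG or TGATAA or TGATAG) or the CACCC motif (CCNCNCCC), on either strand. For *Hba-x* only the surroundings of its GATA match are shown, and the CACCC matches of *Alas2* lie downstream of the stretch shown.
Hba-x, chr11:32276480-32276509, plus strand: tgttgctggctcTGATAAcaggctccaccc
Hbb-y, chr7:103853217-103853407, minus strand: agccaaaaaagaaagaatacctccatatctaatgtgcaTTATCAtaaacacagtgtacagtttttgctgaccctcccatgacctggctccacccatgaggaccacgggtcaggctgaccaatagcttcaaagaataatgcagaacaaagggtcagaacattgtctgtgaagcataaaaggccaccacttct
Alas2, chrX:150547217-150547374, plus strand: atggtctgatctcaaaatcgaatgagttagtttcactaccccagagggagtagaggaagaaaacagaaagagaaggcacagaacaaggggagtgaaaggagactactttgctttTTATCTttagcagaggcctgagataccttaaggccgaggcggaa
Klf1, chr8:84901782-84901927, plus strand: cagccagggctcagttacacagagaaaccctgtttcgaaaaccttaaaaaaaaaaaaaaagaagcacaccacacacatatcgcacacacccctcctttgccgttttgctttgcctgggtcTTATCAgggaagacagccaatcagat
Epor, chr9:21963577-21963776, minus strand: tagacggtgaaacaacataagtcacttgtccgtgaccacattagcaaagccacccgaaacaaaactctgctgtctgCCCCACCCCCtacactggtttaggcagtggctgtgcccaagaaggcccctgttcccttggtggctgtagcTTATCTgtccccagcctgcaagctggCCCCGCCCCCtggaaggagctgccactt

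RefSeq promoters were matched for 7 of the 9 genes. In the 200 bases before the start, a GATA match was present in 6 of these 7 and in 21.9% of 27025 mouse promoters, and a CACCC match in 4 of 7 and in 42.2% of all. Both motifs were present in *Hba-x*, *Alas2* and *Epor*, that is in 3 of 7, and in 5.60% of all promoters. In GENCODE M21 the windows of *Hba-x* and *Gata1* lie inside the annotated gene and those of *Hba-a1*, *Hbb-y*, *Alas2* and *Klf1* reach into it, since transcripts with an earlier start are listed there. The window of *Gata1* held no GATA match and 3 CACCC matches. Matches that overlap were counted separately, and a match describes letters in the window, not binding.

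*Hba-x*, *Hbb-y* and *Hbb-bh1*, the 3 embryonic globins, were by far the most abundant of the 9 genes. *Hba-x*, which encodes zeta-globin, was at 377, 232 and 262 CPM in WT replicates 1 to 3 and at 238, 299.7 and 217 CPM in mutant replicates 1 to 3. WT replicate 1 and mutant replicate 2 were the highest, and the groups overlapped. The log2 fold change of mutants against WT was -0.21 ± 0.23 (SE; 95% interval -0.80 to 0.39; adjusted *P* = 0.853, edgeR's quasi-likelihood test).

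*Hbb-y*, the epsilon-y globin, was at 459, 201 and 224 CPM in WT and at 201, 303 and 247 CPM in mutants. Its value in WT replicate 1 was far above those of the other 5 libraries, which overlapped between genotypes. The log2 fold change was -0.23 ± 0.39 (SE; 95% interval -1.27 to 0.80; adjusted *P* = 0.899, edgeR), the widest interval of the 8 genes tested. *Hbb-bh1*, the beta-h1 globin, was at 624, 421 and 501 CPM in WT and at 424, 579 and 459 CPM in mutants. Here too WT replicate 1 and mutant replicate 2 were the highest and the groups overlapped (log2 fold change -0.08 ± 0.19 (SE); adjusted *P* = 0.928, edgeR).

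*Hba-a1*, which encodes the alpha-globin shared by embryonic, fetal and adult hemoglobin, was listed at 0 counts in all 6 libraries. So were the near-identical *Hba-a2* and the adult beta-globin rows *Hbb-b1*, *Hbb-b2*, *Hbb-bs* and *Hbb-bt*. Of the 600 stretches of 100 bases in the *Hba-a1* transcript, 339 (56.5%) also occur in *Hba-a2*, whereas none of those of the other 8 genes occur in another gene. The limit of 3 counts that a count of 0 allows by counting error alone corresponds to between 0.0400 CPM (mutant replicate 2) and 0.0825 CPM (WT replicate 1). The exact two-sided 95% Poisson intervals end at 0.0490 and 0.101 CPM in those libraries. Both limits use the library size without TMM scaling. The rest of the *Hba-a1* stretches occur in no other gene, so reads from them would fit *Hba-a1* alone. Why the row is at 0, and whether reads that fit both genes were dropped, was not tested. The 0 is therefore not read as an absence of alpha-globin RNA, and a share of zeta-globin among alpha-type globins could not be compared. Of the other globin rows, *Hbq1b* and *Hbb-bh2* averaged 0.361 and 0.220 CPM over the 6 libraries, and *Hbq1a* averaged 0.0281 CPM.

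The balance among globins was compared as ratios within each library, which do not depend on how much blood a head holds. *Hbb-bh1* is known as the earlier and *Hbb-y* as the later beta-type globin of maturing primitive red blood cells. *Hbb-y* took 42.4%, 32.3% and 30.9% of the *Hbb-y* and *Hbb-bh1* reads in WT and 32.1%, 34.3% and 35.0% in mutants. WT replicate 1 was alone above 40%: its 95% Clopper-Pearson interval, for counting error only, ran from 41.9% to 42.9%, and the next highest library, mutant replicate 3, reached at most 35.4%. The group means were 35.2% ± 6.27 in WT and 33.8% ± 1.503 in mutants (SD, n = 3 each; *P* = 0.9, two-sided exact permutation test, for which 3 against 3 allows no *P* below 0.1). Without WT replicate 1 the difference turned from -1.37 to 2.23 percentage points.

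The ratio of *Hba-x* to *Hbb-y* and *Hbb-bh1* reads was 0.348, 0.373 and 0.362 in WT and 0.381, 0.340 and 0.308 in mutants. The mutant libraries held both the highest and the lowest value, and the means did not differ beyond the spread (*P* = 0.5, exact permutation test). The 3 embryonic globins together took 0.146%, 0.0852% and 0.0978% of all counted reads in WT and 0.0859%, 0.120% and 0.0923% in mutants (*P* = 0.7, exact permutation test). Without WT replicate 1 the difference between the means turned from -0.0103 to 0.00790 percentage points. In contrast to the share of *Hbb-y*, this total was high in mutant replicate 2 as well as in WT replicate 1.

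**Figure D1:**
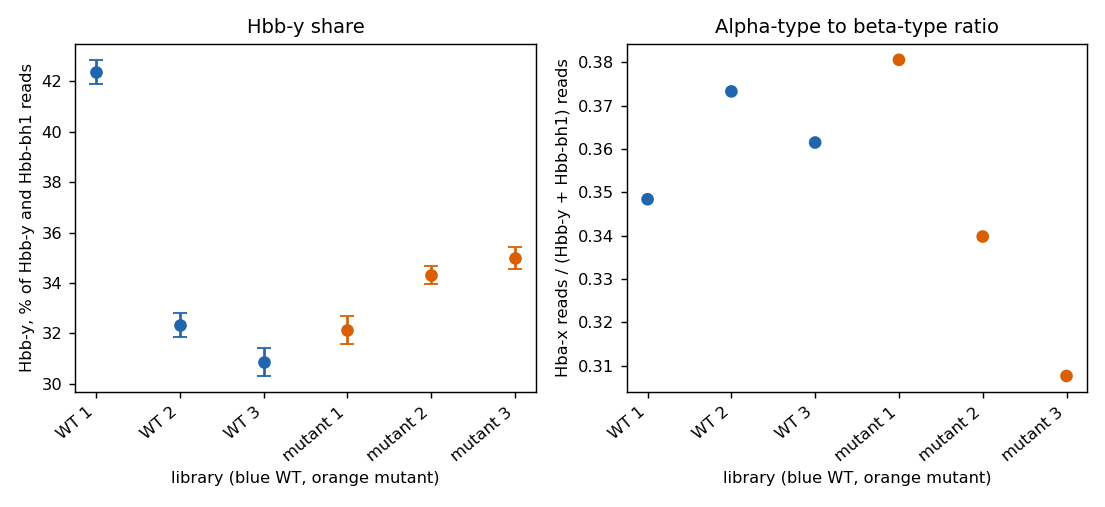
Left, *Hbb-y* reads as a percent of *Hbb-y* and *Hbb-bh1* reads in each library, with 95% Clopper-Pearson intervals of counting error; right, *Hba-x* reads divided by *Hbb-y* and *Hbb-bh1* reads. Neither axis starts at 0; WT replicate 1 is alone at 42.4% on the left, and the genotypes overlap on the right.

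*Alas2* encodes the red cell form of the enzyme that starts heme synthesis. It was at 16.9, 11.7 and 14.1 CPM in WT and at 13.1, 16.9 and 11.6 CPM in mutants, and its log2 fold change was -0.03 ± 0.18 (SE; adjusted *P* = 0.979, edgeR). WT replicate 1 and mutant replicate 2 were level at the top, and the groups covered almost the same range. *Slc4a1*, the band 3 anion exchanger of the red cell membrane, was at 34.6, 22.2 and 20.8 CPM in WT and at 19.6, 27.8 and 15.8 CPM in the mutant libraries. The second highest of its libraries was mutant replicate 2, which lay above WT replicates 2 and 3. Its log2 fold change of -0.29 ± 0.30 (SE; 95% interval -1.04 to 0.47; adjusted *P* = 0.841, edgeR) was the largest of the 8.

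The regulators were low, with 104 reads or more in every library. *Gata1*, the zinc finger factor required for red cell and megakaryocyte differentiation, was at 3.82, 2.89 and 3.38 CPM in WT and at 3.03, 3.58 and 2.47 CPM in mutants. *Klf1*, which activates globin and other red cell genes, was at 5.63, 4.58 and 4.89 CPM in WT and at 4.95, 5.17 and 4.33 CPM in mutants. Both overlapped between genotypes, with log2 fold changes of -0.14 ± 0.17 and -0.06 ± 0.12 (SE; adjusted *P* = 0.856 and 0.916, edgeR). *Epor*, through which erythropoietin supports red cell survival and growth, was at 3.79, 2.84 and 2.81 CPM in WT and at 2.53, 3.49 and 2.98 CPM in mutants (log2 fold change -0.06 ± 0.17 (SE); adjusted *P* = 0.947, edgeR). Its lowest and second highest libraries were both mutant.

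**Figure D2:**
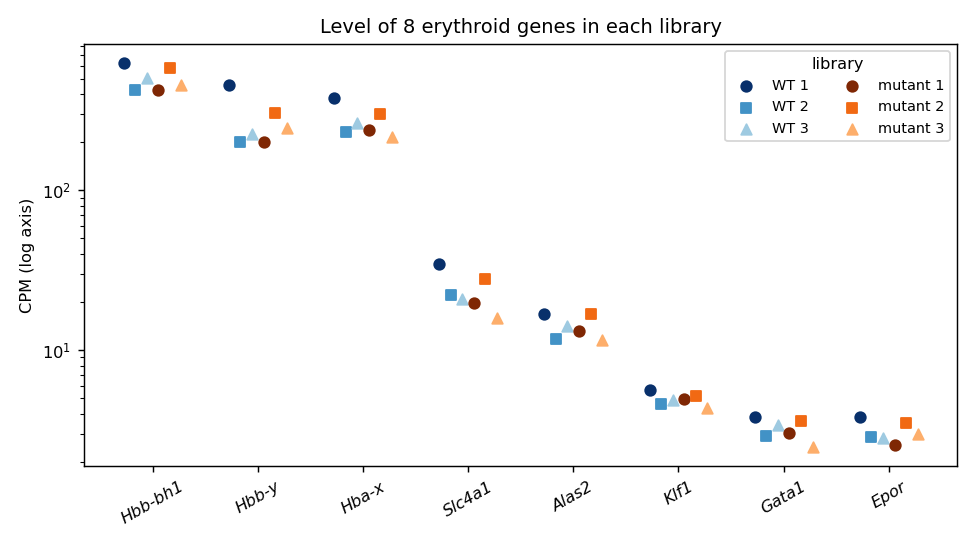
CPM on a log axis for the 8 genes with counts, with 1 point per library (circles, squares and triangles are replicates 1, 2 and 3; blues are WT and oranges are mutants). WT replicate 1 and mutant replicate 2 are the highest points of all 8 genes, and the genotypes overlap in each.

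None of the 8 tested genes passed the threshold. The adjusted *P* was under 0.05 for 0 of 8, where edgeR called 0.00642% of the 15584 genes tested, that is 1 gene. An unadjusted *P* under 0.05 was reached by 0 of 8 and by 8.43% of all genes, and the groups did not overlap in 0 of 8 and in 15.3% of all genes. DESeq2 also called 0 of 8 by adjusted or unadjusted *P*, where it called 0.651% of 12908 genes by adjusted *P* and 6.94% of 15584 by unadjusted *P*. All 8 point estimates were below 0, against 49.8% of all genes, and their median was -0.11 on the log2 scale where the median of all genes was 0.00041. Without WT replicate 1, 2 of 8 were below 0 and the median was 0.05, and the estimates of *Hbb-y* and *Alas2* became 0.23 and 0.11. The 8 genes were measured in the same libraries and moved together over them, so their common sign is not 8 separate results. The amount of blood in each library was not measured.

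**Figure D3:**
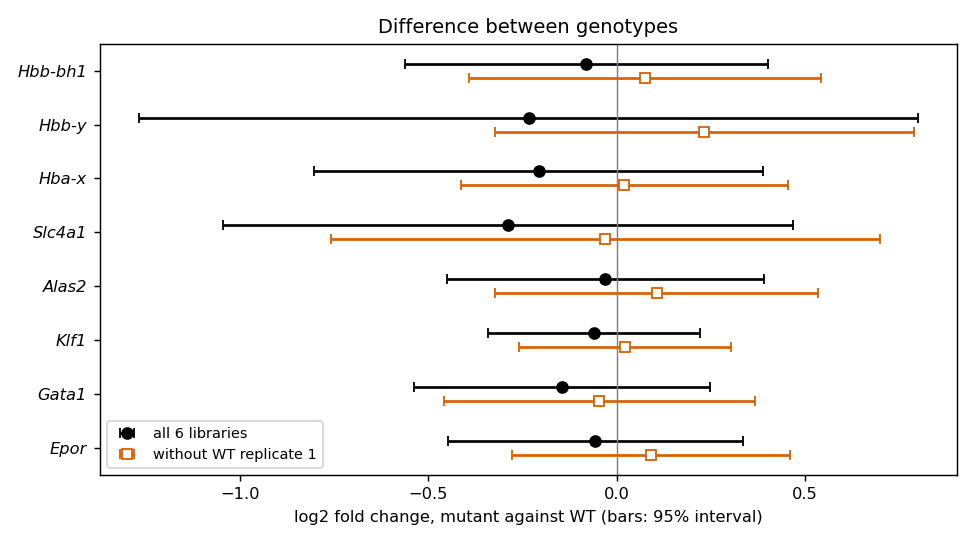
Log2 fold change of mutants against WT with its 95% interval from edgeR, for all 6 libraries (black circles) and without WT replicate 1 (open orange squares). Every interval includes 0, and 6 of the 8 point estimates lie above 0 once that library is left out.

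Compared per kilobase of exon, the levels spanned the 8 genes in a steady order. *Hbb-bh1* averaged 818 CPM per kilobase, *Hbb-y* 430.3 and *Hba-x* 338, and *Alas2* followed at 6.90 CPM per kilobase, 49.1 times below *Hba-x*. *Slc4a1* averaged 5.17, *Klf1* 3.22, *Epor* 1.75 and *Gata1* 1.68 CPM per kilobase. Each neighbouring pair kept its order in 6 of 6 libraries apart from *Epor* and *Gata1*, which kept it in 4 of 6. Per kilobase of coding sequence, *Hba-x* moved above *Hbb-y* (636 against 618), *Slc4a1* above *Alas2* (8.42 against 7.98) and *Gata1* above *Epor* (2.58 against 2.02), so only the order of *Hbb-bh1*, of *Klf1* and of the globins above the rest did not turn on the length used.

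What the 8 genes had in common was their profile over the libraries. WT replicate 1 and mutant replicate 2 were the 2 highest libraries in 8 of 8 genes, as they were in 946 of the 15584 tested genes (6.07%). This pattern was noticed in the data and is given as a description. WT replicate 1 was the highest for 7, and mutant replicate 2 was the highest for *Alas2*. The share of all tested genes that were highest in WT replicate 1 was not counted. Mutant replicate 3 was the lowest for 5 genes, mutant replicate 1 for *Hbb-y* and *Epor*, and WT replicate 2 for *Hbb-bh1*. Each gene's Pearson correlation with the mean of the other 7 lay between 0.857 (*Gata1*) and 0.988 (*Hba-x*) over the same 6 libraries. The part of blood content and depth in these values was not tested.

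The size of the swing differed between the genes. WT replicate 1 was 2.16 times the mean of the other WT libraries for *Hbb-y*, 1.61 times for *Slc4a1* and 1.53 times for *Hba-x*, but 1.35 times for *Hbb-bh1* and 1.19 times for *Klf1*. Mutant replicate 2 was between 1.11 times (*Klf1*) and 1.57 times (*Slc4a1*) the mean of the other mutant libraries. In this library the 3 globins rose by nearly the same factor, 1.32 times for *Hba-x*, 1.35 times for *Hbb-y* and 1.31 times for *Hbb-bh1*. The SD of log2 CPM over the 6 libraries had a median of 0.24 in the 8 genes and of 0.09 in the 13139 tested genes with at least 1 CPM. A larger SD was found in 1.98% of those genes for *Hbb-y*, in 2.90% for *Slc4a1* and in 33.7% for *Klf1*. The genes compared were not matched for level, and counting error widens the SD of genes with few reads, such as *Gata1* and *Epor*.

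**Figure D4:**
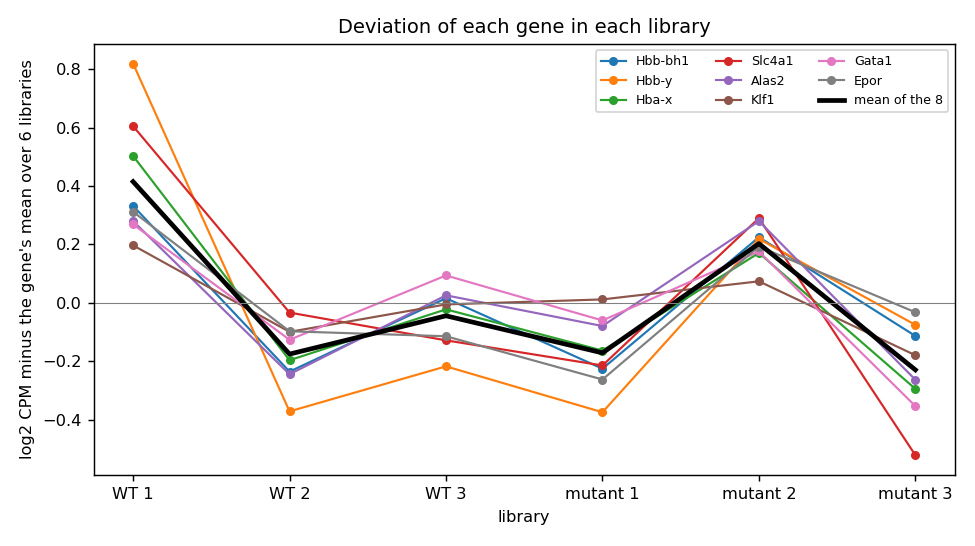
Log2 CPM of each of the 8 genes minus its own mean over the 6 libraries, with the mean of the 8 as a thick line. The mean is 0.42 in WT replicate 1 and 0.20 in mutant replicate 2, and between -0.23 and -0.04 in the other 4 libraries.

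Other red cell genes were taken from lists written from general knowledge. In the list of 19 red cell membrane and skeleton genes, 12 had WT replicate 1 and mutant replicate 2 as their 2 highest libraries. The mean deviation of the 19 was 0.28 in WT replicate 1 and 0.19 in mutant replicate 2, and between -0.24 and -0.05 in the others. The summed level of the list was instead lowest in WT replicate 1, at 1069 CPM against 1084 to 1144 CPM in the others. The 3 most abundant genes of the list, *Cd24a*, *Bsg* and *Epb4.1*, are also used by many other cells, and *Cd24a* and *Bsg* were not highest in WT replicate 1.

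Genes of heme and iron handling, most of which act in many cell types, deviated less on average. Of 17, 6 had the same 2 libraries highest, and their mean deviation was 0.10 in WT replicate 1 and 0.04 in mutant replicate 2. *Alas1*, the form of the enzyme used outside red cells, stayed between 29.2 and 31.9 CPM in all 6 libraries, whereas *Alas2* spanned 11.6 to 16.9 CPM. The highest library of *Alas2* was thus 1.46 times the lowest. In the heme and iron list this factor was larger for *Ireb2* (1.61) and *Steap3* (1.69) and smaller for the other genes. *Ireb2* ran from 83.2 CPM in WT replicate 2 to 134 CPM in mutant replicate 3. The pair of top libraries was found in 3 of 18 tested erythroid transcription factor genes, in 1 of 16 genes of the erythropoietin pathway and in 4 of 16 tested red cell enzyme and maturation genes. In WT replicate 1 and mutant replicate 2, the mean deviation was 0.121 and 0.025 for the transcription factors. It was -0.047 and 0.006 for the erythropoietin pathway, and -0.014 and 0.054 for the enzymes, over genes with counts in every library. Of the 18 tested transcription factor genes, 11 were highest in WT replicate 1, whereas *Tal1* (16.8 CPM) and *Lmo2* (15.1 CPM) were lowest there. *Epo*, the ligand of *Epor*, was between 1.42 and 2.16 CPM. In these 5 lists no gene passed the adjusted threshold with edgeR or DESeq2, and few reached an unadjusted *P* under 0.05. With edgeR these were 4 of the 86 genes tested, where 8.43% of all genes did so: *Ldb1* had a positive fold change and *Tfrc*, *Klf13* and *Cat* had negative ones. With DESeq2 they were 6 of 86, the same 4 with *Sox6* and *Pim1* (both negative), where 6.94% of all genes did so. The median log2 fold changes were -0.07 for the membrane genes, -0.02 for heme and iron, -0.04 for transcription factors, 0.02 for the erythropoietin pathway and -0.04 for enzymes.

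Markers of other cell types were examined by their sums and by the mean deviation of single genes. The 17 endothelial markers, which mark the vessels that hold the blood, summed to 406 CPM in WT replicate 1 and to 470.1 CPM in mutant replicate 2, with 416 to 473 CPM in the other 4 libraries, and none of the 17 had these libraries as its 2 highest. Megakaryocyte markers (11 genes) summed to between 9.52 and 10.8 CPM, and myeloid and macrophage markers (16 genes) to between 8.51 and 10.8 CPM. These lists rest on few reads per gene. The mean deviation of the 7 megakaryocyte markers with counts in every library was highest in WT replicate 1 (0.25) and mutant replicate 2 (0.11). It was 0.10 in mutant replicate 3 and -0.53 in WT replicate 2. Of the 4 megakaryocyte markers tested, however, 0 had WT replicate 1 and mutant replicate 2 as their 2 highest libraries. Their list summed to 10.02 CPM in WT replicate 1, 10.38 CPM in WT replicate 3 and 10.77 CPM in mutant replicate 2. The mean deviation of 13 myeloid and macrophage markers was highest in WT replicate 1 (0.33) and mutant replicate 1 (0.29), and 0.08 in mutant replicate 2. The part of other blood cells in the profile was not tested. The 15 head neural and neural crest markers summed to between 541 and 628 CPM. Of the 9 yolk sac and visceral endoderm markers tested, 8 were highest in WT replicate 1. That library was also the highest for 7 of the 15 head neural and neural crest markers. It was the highest for 2 of the 17 endothelial markers and 0 of the 10 cardiac markers tested. *Afp*, which the visceral endoderm makes in large amounts and which was chosen after its values were seen, was at 5.55 CPM in WT replicate 1 and between 0.0902 and 0.710 CPM in the other libraries. Mutant replicate 2, the other library with high erythroid genes, had a yolk sac sum of 12.02 CPM and a cardiac sum of 152 CPM, both within the range of the remaining libraries. The part of yolk sac tissue, and of how much heart was left on a head, in the level of the erythroid genes was not tested.

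**Figure D5:**
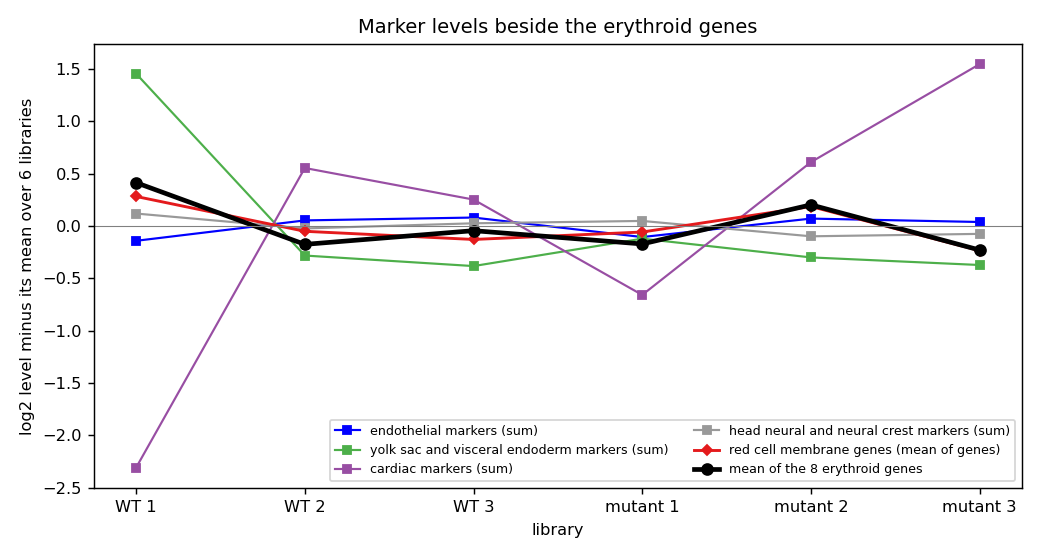
Log2 level minus its mean over the 6 libraries, for the summed CPM of 4 marker lists, the mean of 19 red cell membrane genes and the mean of the 8 erythroid genes (black). The sum of the red cell membrane list is not drawn and was lowest in WT replicate 1 (1069 CPM). Yolk sac markers are high and cardiac markers low in WT replicate 1, while in mutant replicate 2 the erythroid and red cell membrane genes are high with yolk sac markers at the level of the other libraries.

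By likeness of profile, 94 of 13131 other genes with at least 1 CPM had a Pearson correlation of 0.9 or more with the mean of the 8 erythroid genes over the 6 libraries, and 24 had 0.95 or more. Among the 10 most alike were *Stambp* (0.990), *Gpr19* (0.983), *Rmdn1* (0.979), *Pklr* (0.975), *Pdcd5*, *Tpra1*, *Rem2*, *Esrp2* and *Mapt* (0.965). With 6 libraries such values are a description and carry no test. *Pklr*, which encodes the liver and red cell pyruvate kinase, was at 3.41, 1.53 and 1.89 CPM in WT and at 1.66, 2.35 and 1.23 CPM in mutants. The slope of its log2 CPM on the mean log2 deviation of the 8 genes was 1.93, whereas that of *Stambp* was 0.793 and that of *Pdcd5* 0.109.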

How the data were processed

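The counts per gene symbol were deposited by the authors as whole numbers without normalization. The paper's methods name STAR on mm10, Gencode M2 and HTSeq for rRNA-depleted stranded libraries, while the labels list STAR and featureCounts, and the strand setting is not given in the sources used here. All 6 libraries (36378803 to 74909774 counts) were used, and groups come from the labels. By the paper's methods, each pool joined 2 embryos of matched somite number that came from different litters. Whether separate pools share litters is not stated, so p-values measure the spread between these pools.

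Counts were tested in R (version 4.3.3) by edgeR (version 4.0.16), using TMM, filterByExpr, robust quasi-likelihood dispersions and Benjamini-Hochberg adjustment over 15584 genes at 0.05, two-sided, and with DESeq2 (version 1.42.0) as an alternative. Log2 deviations use a prior count of 2 for the 8 genes and for likeness, and none for lists. Scripts were tested on simulated data. Coordinates and lengths come from GENCODE M21 (mm10), and promoters from RefSeq. Of 184 list symbols, 181 were matched. Genes and lists were chosen with earlier results of these data known. The genes to name were the 9 genes, *Snrpb*, the 3 most abundant genes and any called gene of each list, the other globins and the 10 genes most alike in profile. Some genes under this rule are not reported here. Other list genes named were chosen after their values were seen. Alternatives were other normalizations and filters, a replicate block, an erythroid covariate and each library left out.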

Additional observations from a re-analysis of the deposited data

How the results depend on the processing

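No erythroid gene passed the threshold under any of the 14 alternatives, and the lowest adjusted *P* over them was 0.511 (*Slc4a1*, with the mean of 36 erythroid list genes as a covariate). Leaving out single libraries moved the median log2 fold change of the 8 genes between -0.26 and 0.05, and the value above 0 came without WT replicate 1. Without that library the log2 fold changes above 0 were 0.021 for *Hba-x*, 0.23 for *Hbb-y*, 0.075 for *Hbb-bh1*, 0.11 for *Alas2*, 0.023 for *Klf1* and 0.091 for *Epor*. Over all libraries left out, estimates ranged from -0.35 to 0.021 for *Hba-x*, -0.45 to 0.23 for *Hbb-y*, -0.23 to 0.075 for *Hbb-bh1*, -0.20 to 0.11 for *Alas2*, -0.13 to 0.023 for *Klf1* and -0.18 to 0.091 for *Epor*. Without mutant replicate 1 they were 0.0097 for *Hbb-bh1*, 0.0055 for *Alas2* and 0.044 for *Epor*, and without mutant replicate 3 they were 0.082 for *Alas2* and 0.0068 for *Klf1*. With the erythroid covariate they were 0.031 for *Alas2* and 0.0034 for *Epor*. *Gata1* and *Slc4a1* kept a negative estimate throughout. The cause was not tested.

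The difference in globin share ranged from -0.0226 to 0.00790 percentage points and that in *Hbb-y* share from -3.53 to 2.23 percentage points with libraries left out, the highest in each case without WT replicate 1. Over all genes, edgeR called 1 gene, DESeq2 84, edgeR without a filter 11 and edgeR with the erythroid covariate 2, and 0 to 6 with libraries left out (6 without WT replicate 1, 5 without mutant replicate 1 and 0 without each of the other 4). With the replicate block, 1 gene and 0 erythroid genes were called and the median was -0.11. Deviations of same-numbered libraries correlated at 0.169, 0.0320 and 0.360, and those of differently numbered libraries at between -0.245 and 0.088. These values do not settle whether the numbers mark pairs, and no source used here states it. The main fit therefore used no pairs, and the replicate block is given beside it. With 3 libraries per group, changes within the intervals given remain possible.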
